A study of Homo sapiens with 12 samples.

Results

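The 10 genes described here encode proteins by which megakaryocytes and platelets are recognised: ITGA2B, ITGB3, GP9, GP1BA, PF4, PPBP, TUBB1, VWF, THBS1 and CD226. They were chosen by name, as genes of that lineage, with earlier results of these data known. Each was measured by 1 row of the deposited array table, so that 10 of the 18417 genes tested are described. Expression was measured on 12 Affymetrix arrays, 3 in each of 4 groups. KS denotes K562, a line established from a human chronic myeloid leukaemia that is sensitive to adriamycin (doxorubicin, an anthracycline). KA is K562/ADR, its multidrug-resistant subline, induced with adriamycin and kept in 50 nM of it. Each line was studied untreated and after 5 nM decitabine for 72 hours. Decitabine, an analogue of deoxycytidine, is incorporated in place of cytosine and binds DNA methyltransferases covalently, which lowers DNA methylation as cells divide. All groups shared an RPMI-based medium with 10% fetal calf serum. The labels do not say how untreated cells were handled, or if adriamycin stayed on the cells while decitabine was given, so the subline and the drug in its medium cannot be told apart. Separate cultures are not named for the arrays of a group, so a p-value here covers only the spread between these samples. The stated purpose of the series was to find genes by which decitabine acts on resistance that rests on the efflux pump P-glycoprotein.

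Megakaryocytes are the bone marrow cells that shed platelets, and they share a progenitor with red cells. Platelets stick to injured vessel walls through the GPIb-IX complex, which binds von Willebrand factor, and to each other through the integrin made of the ITGA2B and ITGB3 subunits, which binds fibrinogen. They store chemokines, adhesive proteins and growth factors in granules and keep their disc shape with a ring of microtubules. K562 cells carry erythroid genes and are widely used as a model that can be moved towards red cell or megakaryocyte features. The GATA1 factor, partnered by RUNX1, FLI1 and other ETS factors, is known to drive many of the genes described here.

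Promoter sequences are shown for 3 members that rose with decitabine in at least 1 line (ITGA2B, CD226, TUBB1) and 2 that were not called in either line (GP9, PPBP), so that the DNA of responding and non-responding genes can be set side by side. Each run is 300 bases from RefSeq (GRCh38.p14), 250 before and 50 after a transcript start, on the strand of the gene. The windows lie at chr17:44389600-44389899 on the minus strand for ITGA2B, chr18:69956750-69957049 on the minus strand for CD226 and chr20:59019179-59019478 on the plus strand for TUBB1. Those of GP9 and PPBP lie at chr3:129060529-129060828 on the plus strand and chr4:73988141-73988440 on the minus strand. Capitals mark the letters GATA or TATC, the core bound by GATA factors read on both strands, and GGAAG or CTTCC, a core bound by ETS factors read on both strands.
ITGA2B: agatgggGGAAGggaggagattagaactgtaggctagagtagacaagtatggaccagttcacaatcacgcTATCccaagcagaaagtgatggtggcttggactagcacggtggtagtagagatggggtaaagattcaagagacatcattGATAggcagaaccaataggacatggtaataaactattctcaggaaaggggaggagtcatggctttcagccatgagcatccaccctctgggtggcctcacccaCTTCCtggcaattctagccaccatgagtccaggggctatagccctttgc
CD226: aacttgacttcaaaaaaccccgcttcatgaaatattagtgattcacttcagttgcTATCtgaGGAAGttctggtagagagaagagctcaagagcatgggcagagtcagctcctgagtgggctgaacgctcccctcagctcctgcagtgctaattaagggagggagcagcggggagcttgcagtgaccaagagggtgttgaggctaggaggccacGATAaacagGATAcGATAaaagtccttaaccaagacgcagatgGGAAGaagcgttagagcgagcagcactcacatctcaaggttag
TUBB1: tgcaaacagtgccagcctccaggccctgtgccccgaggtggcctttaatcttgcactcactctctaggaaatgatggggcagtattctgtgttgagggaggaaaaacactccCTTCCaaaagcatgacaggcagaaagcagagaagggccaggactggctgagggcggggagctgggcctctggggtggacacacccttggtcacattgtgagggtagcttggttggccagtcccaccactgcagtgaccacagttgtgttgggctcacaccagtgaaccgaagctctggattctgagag
GP9: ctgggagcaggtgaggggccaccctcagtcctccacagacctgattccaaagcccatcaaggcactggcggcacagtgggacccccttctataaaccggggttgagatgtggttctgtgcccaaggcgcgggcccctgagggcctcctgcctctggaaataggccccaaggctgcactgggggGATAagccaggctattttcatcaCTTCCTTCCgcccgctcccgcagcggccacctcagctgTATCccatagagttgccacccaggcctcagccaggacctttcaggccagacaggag
PPBP: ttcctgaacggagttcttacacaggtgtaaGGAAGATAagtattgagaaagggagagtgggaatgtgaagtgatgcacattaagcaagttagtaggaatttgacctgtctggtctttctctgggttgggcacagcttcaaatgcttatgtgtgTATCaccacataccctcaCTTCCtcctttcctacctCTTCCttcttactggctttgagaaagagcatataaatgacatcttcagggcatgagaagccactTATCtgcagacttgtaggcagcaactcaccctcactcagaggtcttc
The ITGA2B window held 2 GATA and 2 ETS matches, the CD226 window 4 and 2, the TUBB1 window 0 and 1, the GP9 window 2 and 2 and the PPBP window 3 and 3, where a match of each kind overlaps. Of 35116 RefSeq windows of this length, 49.71% held at least 1 GATA match, 22.8% at least 2, 9.84% at least 3 and 4.1% at least 4. At least 1 ETS match was held by 71.86%, at least 2 by 38.91% and at least 3 by 16.97%. The same letters therefore stood in windows of genes that rose and of genes that were not called. CpG dinucleotides, the sites of DNA methylation in human cells, numbered 2 in ITGA2B, 8 in CD226, 3 in TUBB1, 8 in GP9 and 1 in PPBP, against a median of 14 over the RefSeq windows. The THBS1 window (chr15:39580829-39581128, plus strand) held 29 CpG, 0 GATA and 1 ETS match, and a second CD226 start (chr18:69947824-69948123, minus strand) had 3 CpG, 1 GATA and 2 ETS matches. Methylation was not measured in the files used here, and a match describes letters, not a bound site. ITGB3, GP1BA, PF4 and VWF had no window in the table.

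Levels are log2 intensities as deposited, so a difference of 1 is a doubling of intensity, and levels of different genes are not compared because each row has its own probes. The lower quartile of intensities was found for each array, and a group mean at or under the highest of these, 3.39, was taken as not above background. Differences are given with the standard error (SE) of a limma fit over the 12 arrays, and a gene was called higher or lower at a Benjamini-Hochberg adjusted p under 0.05 over the 18417 genes. The median of an array was 4.96 to 5.01, and the correlation within groups was 0.990 to 0.995. ABCB1, the gene of P-glycoprotein, read 3.39 ± 0.21 (SD, n = 3) in KS and 11.22 ± 0.04 in KA, as the line labels state. Globin genes expected of K562 were bright: HBE1 had group means of 12.48 to 12.73 and HBZ of 11.03 to 11.66. Untreated KS replicate 3 stood apart. It was the highest of the untreated KS arrays for 10 of the 10 members but for 40.3% of all genes, and it lay 0.08 to 1.17 above the mean of the other KS arrays over the members (median 0.24) against a median of 0.02 over all genes. Other genes stood apart in this array too. It was the highest for 10 of 13 myeloid markers (median gap 0.22, range -0.01 to 1.75). The same held for 14 of 20 granule content genes (median gap 0.21) and 9 of 16 lymphoid markers (median gap 0.23). It was the highest for 6 of 15 erythroid markers, near the share of all genes, with a median gap of 0.02. Single erythroid markers stood apart, with gaps of -0.22 to 2.65, and the largest of these exceeded the gaps of the members. Some member differences are therefore also given without it, while those of single list and marker genes are given with it. Its spread also enters the SE of the other comparisons, because the 12 arrays share an estimate of the spread. Without it the decitabine rise in KA kept its size, but its SE was smaller. The SE was 0.10 against 0.24 for ITGB3 and 0.09 against 0.21 for CD226. In RNA from bulk cultures, fewer cells of a type and less RNA per cell cannot be told apart.

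With decitabine, ITGA2B, ITGB3 and CD226 rose in both lines, TUBB1 rose in KS and THBS1 in KA. GP9, GP1BA, PF4, PPBP and VWF were not called in either line. The members were chosen with earlier results of these data known, so their counts beside the shares of all genes are a description. In KS, 4 of the 10 members were higher and 0 lower, where 30.3% of all genes were called, 14.6% higher and 15.7% lower. In KA, 4 were higher and 0 lower, against 14.6% of all genes called, 9.66% higher and 4.96% lower. The median difference over the members was 0.14 in KS and 0.01 in KA, against -0.01 and -0.02 over all genes, since most members moved little. Higher with decitabine in both lines were 3 of the 10 members and 6.18% of all genes. ITGB3 and CD226 rose by at least 1 in each line, as did 0.299% of all genes. Between untreated lines 3 members were higher in KA and 0 lower, with 25.7% of all genes called, 11.6% higher and 14.1% lower. Between treated lines 4 were higher in KA and 2 lower, with 27.0% of all genes called, 15.1% higher and 11.9% lower. The difference between the decitabine responses of KA and KS, tested as an interaction term, was called for 4 members, 2 in each direction, and for 6.74% of all genes, 4.60% higher and 2.14% lower. Without KS replicate 3 the members called were again 4 higher in KS with decitabine and 3 higher in untreated KA, and 5 were called for the difference of responses. The shares of all genes called were then 31.4, 26.5 and 11.1%.

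**Figure D1:**
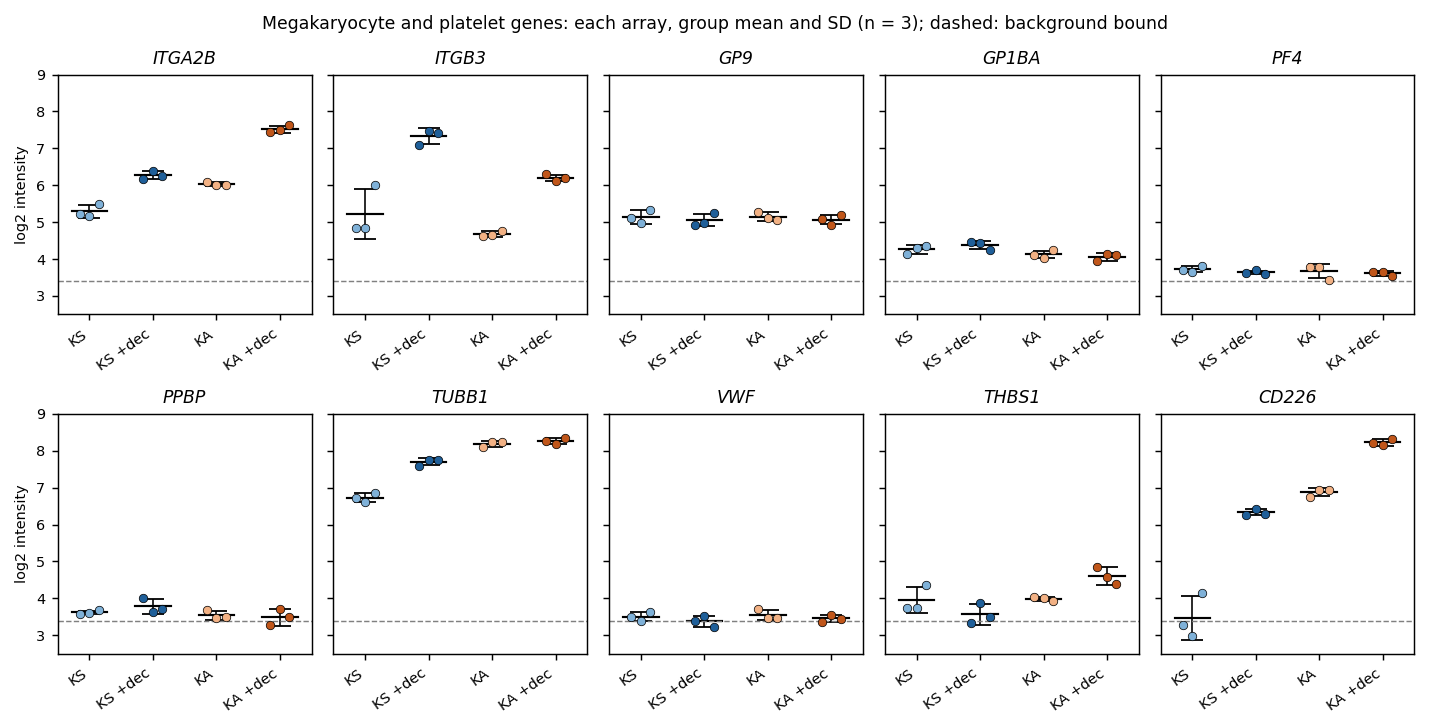
Log2 intensity (vertical axis) of each member in untreated and decitabine-treated (+dec) KS and KA; points are arrays, bars the mean and SD of 3 arrays, and the dashed line the background bound of 3.39. CD226 runs from 2.97 in an untreated KS array to 8.33 in a treated KA array, whereas PF4, PPBP and VWF stay between 3.21 and 4.001 in every group.

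ITGA2B, the alpha subunit of the platelet fibrinogen receptor and an early surface marker of the megakaryocyte lineage, read 5.21, 5.17 and 5.49 in the untreated KS arrays. The treated KS arrays read 6.18, 6.39 and 6.25. The untreated KA arrays read 6.10, 6.01 and 6.00, and the treated KA arrays 7.45, 7.49 and 7.63. Every treated array lay above every untreated array of its line, and untreated KA lay above untreated KS. Decitabine raised ITGA2B by 0.99 ± 0.09 (SE) in KS, a 1.98-fold rise in intensity (adjusted p = 1.247e-05), and by 1.49 ± 0.09 in KA, a 2.80-fold rise (adjusted p = 9.630e-06). It was higher in KA than in KS by 0.75 ± 0.09 without decitabine (adjusted p = 6.345e-05) and by 1.25 ± 0.09 with it (adjusted p = 5.604e-07). In the order of group means, 5.29 ± 0.18 (SD, n = 3) in untreated KS, 6.04 ± 0.05 in untreated KA, 6.28 ± 0.11 in treated KS and 7.52 ± 0.10 in treated KA, the arrays of neighbouring groups did not overlap. The response of KA exceeded that of KS by 0.50 ± 0.13 (adjusted p = 0.04246). That last call was lost with 9 of the 12 arrays left out in turn (the exceptions were KS replicates 2 and 3 and treated KS replicate 2), with an adjusted p of up to 0.1005 without treated KA replicate 3.

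ITGB3, the beta subunit that pairs with ITGA2B and, in other cells, with the alpha V subunit, read 4.84, 4.83 and 6.00 in untreated KS. It read 7.08, 7.48 and 7.42 in treated KS, 4.62, 4.66 and 4.76 in untreated KA and 6.29, 6.11 and 6.19 in treated KA. The treated arrays lay above the untreated ones in each line, and KS replicate 3 lay between the other untreated KS arrays and the treated ones. The rise was 2.10 ± 0.24 in KS, 4.30-fold (adjusted p = 3.400e-05), and 1.52 ± 0.24 in KA, 2.87-fold (adjusted p = 0.001345). Unlike ITGA2B, ITGB3 was lower in treated KA than in treated KS, with means of 6.20 ± 0.09 and 7.33 ± 0.21 (SD) and a difference of -1.13 ± 0.24 (adjusted p = 0.003019). In untreated cells the KA arrays lay below the KS arrays. The difference was -0.55 ± 0.24, which was not called (adjusted p = 0.1205) and shrank to -0.16 ± 0.11 without KS replicate 3. The difference of responses was -0.58 ± 0.34 and not called (adjusted p = 0.3318). Without KS replicate 3 it was -0.97 ± 0.15 (adjusted p = 0.002726), and the rise in KS was then 2.49 ± 0.11.

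CD226 (DNAM-1), an adhesion receptor of natural killer cells, T cells, monocytes and platelets that binds nectin-family ligands, had the widest range of group means among the members, 4.77. It read 3.28, 2.97 and 4.13 in untreated KS, where replicates 1 and 2 were not above the background bound. The treated KS arrays read 6.27, 6.42 and 6.30. The untreated KA arrays read 6.75, 6.93 and 6.94, and the treated KA arrays 8.21, 8.15 and 8.33. No 2 of the 4 groups overlapped, and untreated KA lay above treated KS. With decitabine CD226 rose by 2.87 ± 0.21 in KS (adjusted p = 6.347e-06) and by 1.35 ± 0.21 in KA, 2.56-fold (adjusted p = 0.001223). It was higher in KA by 3.41 ± 0.21 without decitabine (adjusted p = 8.634e-08) and by 1.90 ± 0.21 with it (adjusted p = 1.816e-05). Without KS replicate 3, the remaining untreated KS arrays have a mean of 3.13, under the bound. With that array left out and the bound in place of this mean, treated KS was at least 7.65-fold and untreated KA at least 11.2-fold higher; with the 3 arrays the folds were 7.30 and 10.6. The response of KA minus that of KS was -1.51 ± 0.30 (adjusted p = 0.01249), and -1.85 ± 0.14 without KS replicate 3. Leaving out any of the 12 arrays in turn kept this call, with an adjusted p of at most 0.03848.

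GP9 and GP1BA are subunits of the GPIb-IX complex: GP1BA carries the von Willebrand factor binding site, and GP9 is needed for the complex to reach the surface. GP9 lay between 4.93 and 5.33 in the 12 arrays, with group means within 0.10 of each other, and the groups overlapped in every comparison. Its differences ran from -0.09 ± 0.11 with decitabine in KS to 0.02 ± 0.11 between treated lines, and none was called. The 95% confidence interval of its decitabine response was -0.33 to 0.16 in KS and -0.32 to 0.16 in KA. GP1BA read 4.13, 4.30 and 4.36 in untreated KS, 4.46, 4.44 and 4.24 in treated KS, 4.11, 4.03 and 4.24 in untreated KA and 3.94, 4.13 and 4.12 in treated KA. It was not called with decitabine, with intervals of -0.08 to 0.32 in KS and -0.26 to 0.14 in KA. Between treated lines it was lower in KA, with a difference of -0.32 ± 0.09 (adjusted p = 0.02023). That call was lost without treated KS replicate 1 (adjusted p = 0.07488), treated KS replicate 2 (adjusted p = 0.07144) or treated KA replicate 1 (adjusted p = 0.09187).

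TUBB1, the beta tubulin of the platelet microtubule ring, read 6.73, 6.61 and 6.85 in untreated KS. The treated KS arrays read 7.60, 7.75 and 7.76. The untreated KA arrays read 8.10, 8.24 and 8.24, above every KS array, and the treated KA arrays 8.27, 8.19 and 8.34. TUBB1 rose with decitabine by 0.97 ± 0.08 in KS, 1.96-fold (adjusted p = 7.227e-06). In KA the treated and untreated arrays overlapped, the difference was 0.07 ± 0.08 (adjusted p = 0.6186), and its 95% confidence interval was -0.11 to 0.25. The responses differed by -0.90 ± 0.12 (adjusted p = 0.00222). TUBB1 was higher in KA than in KS by 1.47 ± 0.08 without decitabine, 2.76-fold (adjusted p = 3.653e-08), and by 0.56 ± 0.08 with it (adjusted p = 1.909e-04). Leaving out any array, KS replicate 3 included, kept these 4 calls.

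THBS1, the gene of thrombospondin, a large adhesive protein of platelet granules that is also secreted by other cells, read 3.74, 3.75 and 4.36 in untreated KS and 3.32, 3.88 and 3.49 in treated KS. It read 4.04, 4.002 and 3.93 in untreated KA and 4.86, 4.57 and 4.39 in treated KA. The groups overlapped in KS and did not overlap in KA. Treated KS replicate 1 was not above the background bound of 3.39, and the treated KS mean of 3.56 lay close to it. The sizes of differences that involve treated KS are therefore uncertain. THBS1 was higher with decitabine in KA by 0.61 ± 0.18, 1.53-fold (adjusted p = 0.03477). This call was lost without KA replicate 1, 2 or 3 and without treated KA replicate 1 or 2, with adjusted p of 0.07268 to 0.1339. It was kept without KS replicate 3 (adjusted p = 0.0113). In KS the difference was -0.38 ± 0.18 and not called (adjusted p = 0.1278). It was -0.18 ± 0.16 without KS replicate 3, but -0.54 and called without treated KS replicate 2 (adjusted p = 0.0419) and -0.48 and called after centring each array on its median (adjusted p = 0.03757). Between treated lines THBS1 was higher in KA by 1.04 ± 0.18 (adjusted p = 6.123e-04), a call kept with any of the 6 arrays left out. Between untreated lines the difference was 0.04 ± 0.18, and 0.25 ± 0.16 without KS replicate 3. The difference of responses was 0.997 ± 0.25 (adjusted p = 0.03356). It was lost without treated KS replicate 1 or 3, KA replicate 1, 2 or 3, or treated KA replicate 1 or 2, with adjusted p of 0.06231 to 0.07757.

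PF4 and PPBP, the most abundant chemokines of platelet alpha granules, and VWF, the adhesive protein of alpha granules and endothelial cells, lay close to the background bound. PF4, which has a near-identical copy (PF4V1) that probes can share, lay between 3.44 and 3.82, with group means of 3.62 to 3.73. PPBP lay between 3.27 and 4.001 and was at or under the bound in 1 of the 12 arrays. VWF lay between 3.21 and 3.71, was at or under the bound in 3 arrays and had a mean of 3.37 in treated KS, which is not above it. These 3 genes were not called in any comparison. The largest difference among them was -0.29 ± 0.12 in PPBP between treated lines (adjusted p = 0.09709), where the groups overlapped. It was -0.40 and called without treated KA replicate 2 (adjusted p = 0.02712). The intervals of the decitabine responses lay within -0.35 and 0.12 for VWF, -0.29 and 0.15 for PF4 and -0.31 and 0.42 for PPBP.

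**Figure D2:**
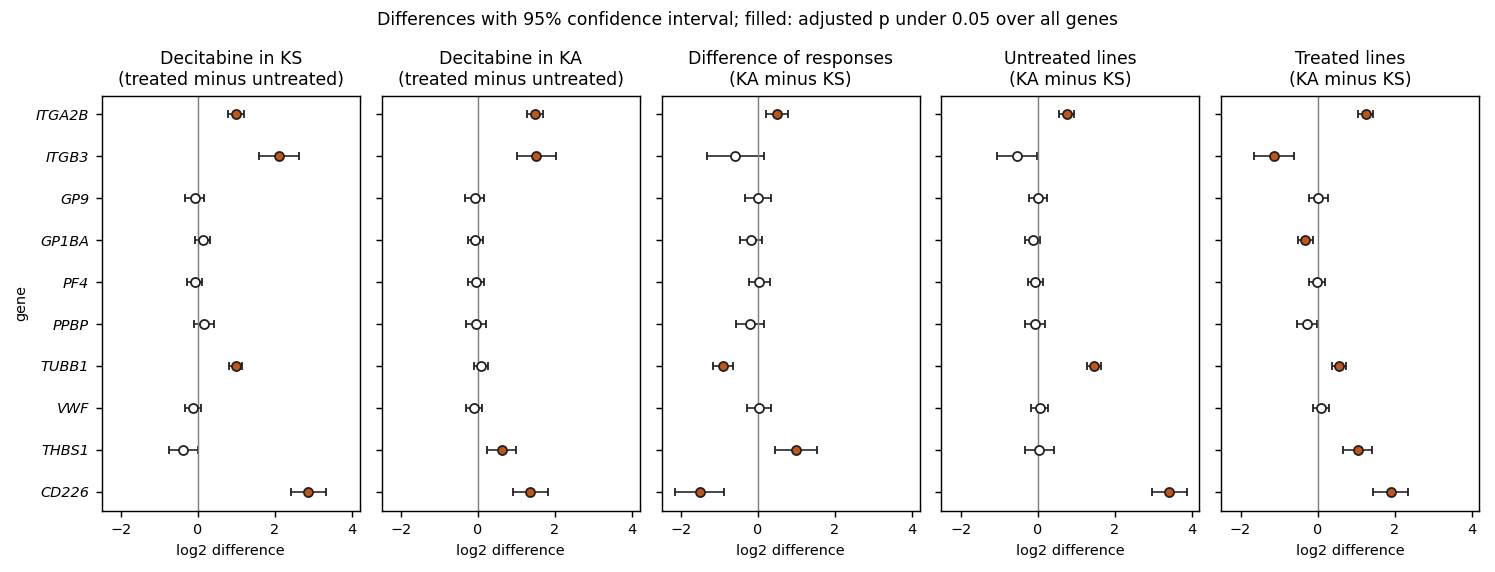
Log2 difference (horizontal axis) of each member in 5 comparisons, with its 95% confidence interval; filled points are called at an adjusted p under 0.05. ITGA2B, ITGB3 and CD226 lie to the right of 0 for decitabine in each line, while TUBB1 is at 0.97 in KS and 0.07 in KA.

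Other genes of the platelet pathway were counted in 6 lists written with earlier results of these data known. Beside each count stands the range found when any array of the comparison is left out. The counts are to be read against all genes, of which decitabine raised 14.6% and lowered 15.7% in KS and raised 9.66% and lowered 4.96% in KA, and of which 11.6% were higher and 14.1% lower in untreated KA. Of 24 measured surface receptors other than the members, decitabine raised 8 (7 to 8) and lowered 3 (3 to 4) in KS, and raised 4 (3 to 4) and lowered 0 in KA. The median difference was 0.05 in KS and 0.09 in KA. P2RX1, an ATP-gated channel, rose by 0.72 ± 0.11 in KS (adjusted p = 3.185e-04) and 0.85 ± 0.11 in KA (adjusted p = 5.333e-04). CD9, a tetraspanin, rose by 0.85 ± 0.11 in KS (adjusted p = 5.893e-05) and differed by 0.31 in KA, which was not called. The thromboxane receptor TBXA2R (-0.78 ± 0.08) and the thrombin receptor F2RL3 (-0.65 ± 0.11) fell in KS and differed by 0.20 and -0.12 in KA, not called. ESAM, an adhesion molecule, rose by 0.34 ± 0.09 in KS and 0.49 ± 0.09 in KA, and PEAR1, a contact receptor, by 0.58 ± 0.09 and 0.46 ± 0.09. Between untreated lines 6 receptors were higher in KA (5 to 7) and 5 lower (4 to 5). The collagen receptor GP6 was higher by 1.22 ± 0.10 (adjusted p = 1.527e-06), the scavenger receptor CD36 by 0.87 ± 0.09 and the Fc receptor FCGR2A by 0.67 ± 0.10. TBXA2R was lower, at -1.03 ± 0.08. CLEC1B, FCER1G, ITGA2, ITGA6 and P2RY12, also platelet receptors or their partners, had no group mean above the bound.

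Of 26 signalling genes, decitabine raised 9 (8 to 9) and lowered 5 (3 to 5) in KS, and raised 3 (2 to 5) and lowered 0 in KA, with medians of 0.02 and 0.08. The 5 were 3 without KS replicate 1 or 2 or treated KS replicate 2 or 3, and the 3 were 5 without KA replicate 3. PTGS1, the platelet cyclooxygenase, read 4.06, 3.79 and 4.33 in untreated KS, 4.81, 5.04 and 4.96 in treated KS, 7.04, 7.24 and 7.31 in untreated KA and 8.14, 8.21 and 8.13 in treated KA. No 2 groups of PTGS1 overlapped. It rose with decitabine by 0.88 ± 0.12 in KS (adjusted p = 1.389e-04) and 0.96 ± 0.12 in KA (adjusted p = 3.973e-04), and was 3.14 ± 0.12 higher in untreated KA (adjusted p = 1.173e-09). TBXAS1, the thromboxane synthase that acts downstream of it, rose by 0.51 ± 0.07 in KS and differed by 0.05 in KA, not called. The adaptor FYB1 rose by 0.93 ± 0.17 from a mean of 3.09, which was not above the bound, and the exchange factor VAV1 by 0.80 ± 0.12 in KS. In KA, FYB1 differed by 0.52 (adjusted p = 0.06016; called without KA replicate 3), and VAV1 by 0.49 (adjusted p = 0.01687), a call lost without KA replicate 2 or treated KA replicate 3. Between untreated lines 4 signalling genes were higher in KA (3 to 5) and 2 lower (2 to 3). The kinase SYK was lower, at -1.46 ± 0.07. GNA13, a G protein subunit, was higher by 0.55 ± 0.06.

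Of 20 granule content genes, decitabine raised 9 (6 to 10) and lowered 2 (1 to 2) in KS, and raised 7 (6 to 7) and lowered 1 in KA, with medians of 0.27 and 0.20. The fibronectin gene FN1 rose by 1.87 ± 0.14 in KS (adjusted p = 6.347e-06) and 0.98 ± 0.14 in KA (adjusted p = 9.279e-04), and the selenium transport protein SELENOP by 0.76 ± 0.10 in each line. The growth factor EGF rose by 1.58 ± 0.17 in KA (adjusted p = 1.658e-04) and PDGFA by 0.64 ± 0.07, and neither was called in KS. EGF lay close to the background bound in KS, with a mean of 3.53 without and with decitabine. IGF1 rose by 0.67 ± 0.09 in KS and 0.57 ± 0.09 in KA. LTBP1, which binds latent TGF-beta, rose by 0.88 ± 0.08 in KS and differed by 0.31 in KA (adjusted p = 0.0249), a call lost without KA replicate 1 or 2 or treated KA replicate 1 or 3. SPARC, a collagen-binding granule protein, read 4.29 to 4.57 in untreated KS and 8.58 to 8.59 in untreated KA, a difference of 4.18 ± 0.12 (adjusted p = 9.275e-11). SELENOP was lower in untreated KA, at -2.65 ± 0.10, and PDGFA at -1.24 ± 0.07, while FN1 was higher by 1.14 ± 0.14. In all, 7 granule content genes were higher in untreated KA (6 to 8) and 5 lower (4 to 5).

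Of 16 genes of granule formation and release, decitabine raised 3 (3 to 4) and lowered 5 (3 to 5) in KS, and raised 6 (3 to 4) and lowered 1 (0 to 1) in KA, with medians of -0.02 and 0.15. The count of 6 in KA fell to 3 without KA replicate 3 or any treated KA replicate, and the 5 lowered in KS were 3 without KS replicate 2 or treated KS replicate 3. RAB27B, a small GTPase of granule secretion, rose by 0.45 ± 0.10 in KS and 0.65 ± 0.10 in KA. GFI1B, a transcriptional repressor needed for alpha granules, rose by 0.63 ± 0.09 in KS and 0.59 ± 0.09 in KA, and VIPAS39, a sorting factor for alpha granules, by 0.45 ± 0.07 and 0.35 ± 0.07. RAB38 fell by 0.71 in KS and differed by -0.44 in KA (adjusted p = 0.02571), a call lost without KA replicate 1 or 2 or treated KA replicate 2 or 3. Between untreated lines 4 were higher in KA (4 to 4) and 5 lower (3 to 6), where the count of lower genes was 3 without KA replicate 1. RAB27B was higher by 1.46 ± 0.10, RAB27A by 0.62 ± 0.11, VIPAS39 by 0.59 ± 0.07 and its partner VPS33B by 0.505 ± 0.08.

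Of 16 cytoskeleton genes, decitabine raised 4 (2 to 5) and lowered 2 (1 to 3) in KS. The 4 were 2 without KS replicate 1 or treated KS replicate 2. In KA 0 were called, and 0 to 1 with an array left out. TUBB2A, another beta tubulin, rose by 0.42 ± 0.11 and the myosin gene MYH9 by 0.32 in KS, while the profilin gene PFN1 was lower, at -0.36. In KA they differed by 0.34 (adjusted p = 0.05005; called without KA replicate 2), 0.22 and -0.14. Between untreated lines 2 were higher (1 to 2) and 3 lower (3 to 4) in KA, with CDC42 at -0.48 ± 0.10, TUBA4A at 0.41 ± 0.06, TPM1 at -0.36 ± 0.09 and PFN1 at -0.35 ± 0.06. Of 14 transcription factor genes, decitabine raised 4 (0 to 4) and lowered 2 in KS, and 0 were called in KA (0 to 1). The count of 4 was 0 without KS replicate 2 or treated KS replicate 3, 1 without treated KS replicate 2 and 2 without KS replicate 1. GATA2, a factor of early progenitors, fell by 0.72 and SRF by 0.59 in KS, and they differed by -0.26 and -0.04 in KA, not called. Between untreated lines 4 were higher (3 to 4) and 4 lower (3 to 4) in KA. ETS1, an ETS factor, was higher in KA by 2.19 ± 0.12 (adjusted p = 2.556e-08) and MEIS1, a homeobox factor of megakaryocytes and stem cells, lower, at -1.52 ± 0.10. TAL1 was higher by 0.65 ± 0.09 and LYL1, its relative, lower, at -0.47 ± 0.10. FLI1 and ERG, ETS factors of the lineage that were singled out after their values were seen, had no group mean above the bound, with arrays between 3.01 and 3.42 and between 2.91 and 3.51. GATA1, singled out in the same way, had group means of 8.89 to 9.14. It was called higher with decitabine in KS by 0.25 ± 0.08 (adjusted p = 0.02812), a call lost without KS replicate 1 or 2 or treated KS replicate 2 or 3. In KA it differed by 0.20, not called.

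**Figure D3:**
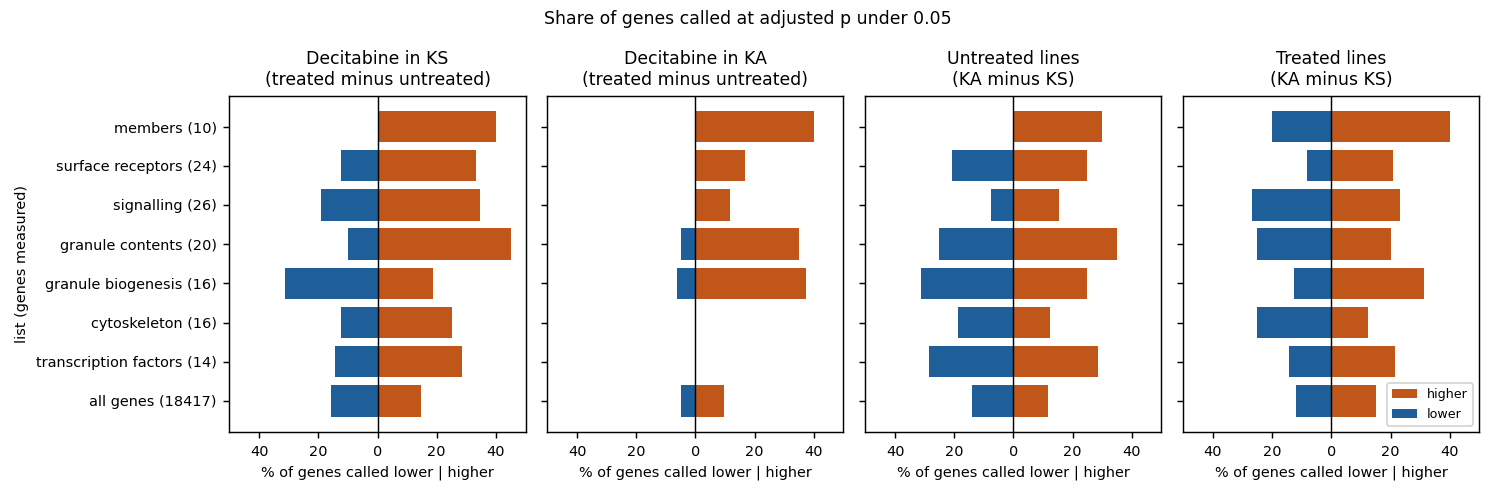
Percent of genes called lower (left) and higher (right) among the 10 members, the 6 lists and all 18417 genes in 4 comparisons; the number measured stands beside each list. With decitabine in KA, cytoskeleton and transcription factor genes show no bar, and no member is called lower with decitabine in either line.

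**Figure D4:**
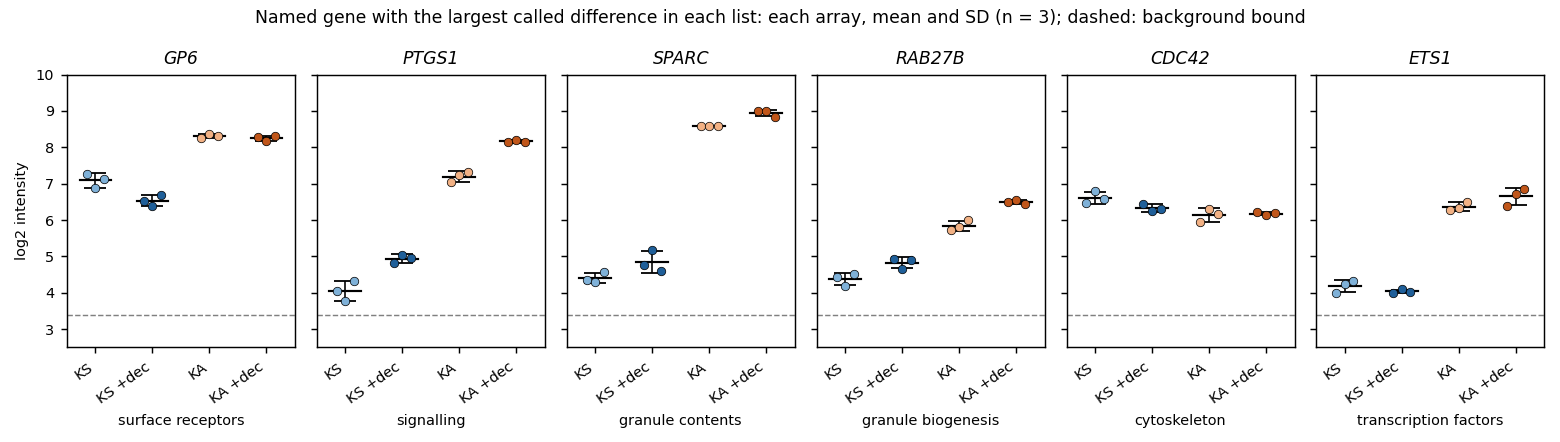
Log2 intensity of the gene with the largest called difference in any of the 4 comparisons between groups, among the genes named from each list; points are arrays, bars the mean and SD of 3 arrays, and the dashed line the background bound. GP6, PTGS1, SPARC, RAB27B and ETS1 lie higher in the KA groups than in the KS groups, and CDC42 lies lower in untreated KA than in untreated KS.

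With both lines treated, the list counts stand against 15.1% of all genes higher and 11.9% lower in KA. Of the surface receptors 5 were higher in KA (3 to 5; 3 without treated KA replicate 3) and 2 lower, with GP6 at 1.71 ± 0.10, CD9 at -1.15 ± 0.11, the tetraspanin CD151 at 0.56 ± 0.07 and P2RX1 at 0.55 ± 0.11. Of the signalling genes 6 were higher (6 to 7) and 7 lower (6 to 7), with PTGS1 at 3.22 ± 0.12 and SYK at -1.10 ± 0.07. FYB1 was lower, at -0.83 ± 0.17, with a mean of 3.19 in KA, not above the bound. Of the granule content genes 4 were higher and 5 lower (5 to 6). SPARC differed by 4.09 ± 0.12, SELENOP by -2.65 ± 0.10, EGF by 2.498 ± 0.17 and MMRN1, the platelet multimerin, by -1.14 ± 0.125. The EGF mean of 3.53 in treated KS lay close to the bound, so the size of its difference is uncertain. Of the granule formation genes 5 were higher (4 to 5) and 2 lower (1 to 2), with RAB27B at 1.66 ± 0.10, RAB27A at 0.80 ± 0.11, VPS33B at 0.61 ± 0.08 and VIPAS39 at 0.50 ± 0.07. Of the cytoskeleton genes 2 were higher and 4 lower (1 to 2), a count that rests on each of the 6 arrays. TPM1 was at -0.46 ± 0.09, TUBA4A at 0.44 ± 0.06 and DIAPH1, a formin, at 0.41 ± 0.07. Of the transcription factor genes 3 were higher and 2 lower, with ETS1 at 2.61 ± 0.12, MEIS1 at -1.76 ± 0.10, MAFG, a partner of NFE2, at 0.52 ± 0.07 and LYL1 at -0.51 ± 0.10.

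Markers of cell types that share members with platelets are given for comparison, and their part in the results was not tested. Their counts are to be read against the shares of all genes called in each direction. Decitabine raised 14.6% and lowered 15.7% in KS, and raised 9.66% and lowered 4.96% in KA. In untreated KA 11.6% were higher and 14.1% lower. Of 15 erythroid markers, all above the bound in each group, decitabine raised 9 (8 to 9) and lowered 1 (1 to 2) in KS, and raised 6 and lowered 1 in KA. The count of 6 was 2 to 4 with any array of the comparison left out. The median difference was 0.38 in KS and 0.04 in KA. SLC4A1, the red cell anion exchanger, rose by 3.62 in KS, ALAS2 by 2.47, AHSP by 2.39 and EPB42 by 1.73. In KA they rose by 1.77, 1.01, 1.39 and 1.09 in the same order. The KA calls of SLC4A1 and ALAS2 were lost with any array of the comparison left out. That of AHSP was lost without KA replicate 1 or treated KA replicate 3, and that of EPB42 was kept. In untreated KS, SLC4A1 read 7.45 in replicate 3 against 4.98 and 4.63 in the others. A sum of log2 values is not a level and is weighted to such genes. The sums over the erythroid markers ran from 120.0 to 127.7 over the untreated KS arrays and 134.4 to 135.9 in treated KS. They ran from 127.0 to 128.1 in untreated KA and 132.5 to 133.2 in treated KA. Of 15 endothelial markers, which bear on VWF and THBS1, KDR, TEK, EMCN and ERG had no group mean above the bound. Decitabine raised 4 (2 to 4) and lowered 1 in KS and raised 1 in KA, and their sums ran from 69.3 to 72.5, 71.1 to 72.8, 69.0 to 72.8 and 70.3 to 71.2 in the same order of groups. Of 16 lymphoid and natural killer markers, which bear on CD226, KLRD1 and MS4A1 had no group mean above the bound. Decitabine raised 1 (1 to 2) and lowered 0 in KS, and raised 2 (1 to 2) and lowered 0 in KA, and the others were not called. PRF1, named after its values were seen, rose by 0.74 ± 0.11 in KS and 0.61 ± 0.11 in KA. Between untreated lines 14 were not called, 0 were lower and 2 were higher in KA (2 to 4), near the share of all genes. These were CD3D (2.28 ± 0.09) and CD96 (0.66 ± 0.11), named after their values were seen; the CD96 mean of 3.27 in untreated KS was not above the bound, so the size of its difference is uncertain. The sums were 65.0 to 67.6, 65.6 to 68.9, 68.4 to 71.0 and 70.1 to 72.0. Of 13 myeloid markers 5 were higher with decitabine in KS (4 to 6) and 1 in KA. The lysozyme gene LYZ rose by 2.61 in KS and by 1.77 in KA (adjusted p = 0.004573). The sums were 63.4 to 67.9, 70.6 to 71.3, 64.7 to 66.5 and 66.4 to 67.8.

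For each member whose group means spanned at least 1, the 3 other genes of most like pattern were those with the smallest root mean square difference over the 12 arrays after centring each gene. They are a description, and the arrays are shared. NPL (0.24), SEC24D (0.24) and ALDH6A1 (0.25) ran closest to ITGA2B, which itself lay 0.81 from a flat line. TP53INP1 (0.24), FEZ1 (0.27) and LXN (0.27) ran closest to ITGB3, which lay 1.05 from flat. ITGA2B and ITGB3, the subunits of a receptor, thus had different nearest genes: ITGA2B was higher and ITGB3 lower in treated KA than in treated KS. GABARAPL1 (0.16), MYO6 (0.17) and SH3BGRL2 (0.17) ran closest to TUBB1, 0.62 from flat. MS4A4A (0.18), which had no group mean above the bound, NLRP14 (0.22) and SLC39A13 (0.23) ran closest to THBS1, 0.43 from flat. CA1 (0.52), HEPACAM2 (0.61) and TCN1 (0.70) ran closest to CD226, 1.76 from flat. CA1, a carbonic anhydrase of red cells, had group means of 5.87 in untreated KS, 8.55 in treated KS, 8.47 in untreated KA and 9.48 in treated KA.

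**Figure D5:**
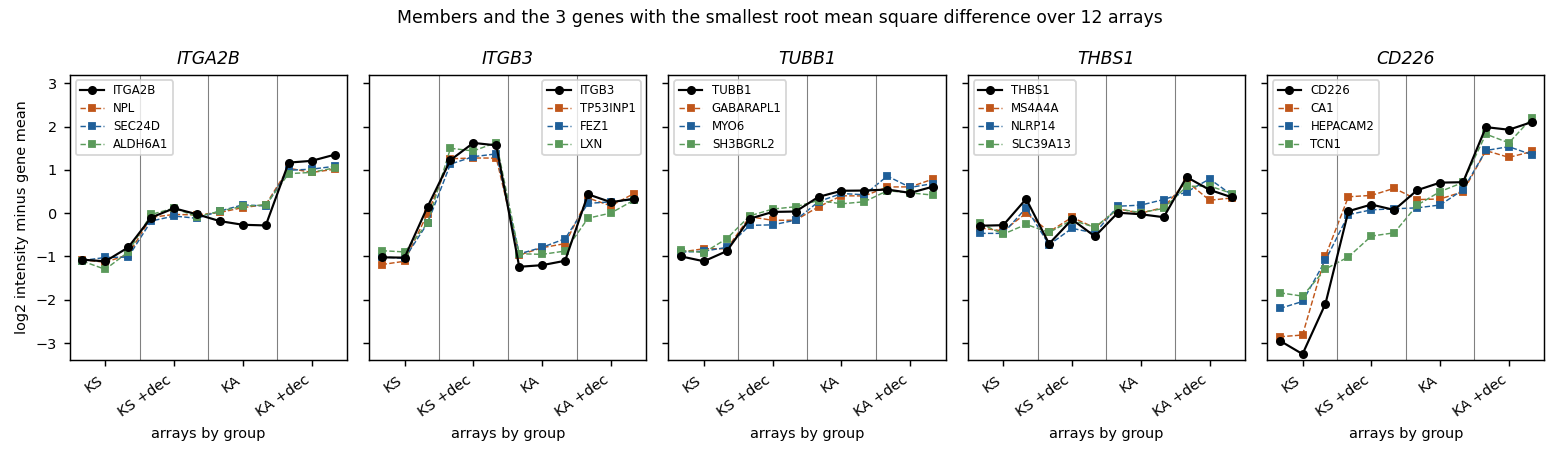
Log2 intensity minus the mean of each gene over the 12 arrays, ordered by group along the horizontal axis, for 5 members (black) and the 3 genes nearest to each. ITGB3 and its nearest genes peak in treated KS, whereas ITGA2B and CD226 and theirs peak in treated KA.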

How the data were processed

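The deposited values are log2 intensities; their background correction, summarization, normalization and genome build by the authors are not given in the sources used here. Per the labels' protocols, Trizol RNA (6 ug) was labelled as biotin cRNA. No scaling was added. Of 33297 rows of the deposited table, 19460 had 1 gene symbol, 1754 several and 12083 none; 19429 of the first matched RefSeq. Among 18417 genes, 769 had several rows, of which the brightest was kept; each member had 1 row. The fit of group means to the 12 arrays used limma 3.58.1 in R 4.3.3, with 8 residual and 4.71 prior degrees of freedom, and the fit was tested on simulated data. The number of arrays limits the precision. Figures used Python 3.11.15 and matplotlib 3.10.9.

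Members and gene lists were chosen with earlier results of these data known. Members are described throughout. Of each pathway list, at most 4 called genes per comparison whose groups do not overlap are named, by size of change. After the results were seen, a gene was left unnamed for a comparison where its call was lost with 1 array left out. Genes named for decitabine in 1 line are also given in the other, with a lost call stated. FLI1, ERG, GATA1, RUNX1, GP5 and NFE2 were picked outside this rule. Marker lists are given mainly by counts and sums. A further list gene that the rule names is not reported here. Alternatives were quantile normalization, median centring, a filter on dim genes, a replicate block, the mean of all rows of a gene, another variance model, the compared groups alone and each array left out.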

Additional observations from a re-analysis of the deposited data

Results flagged for a closer look

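The decitabine response was tested for a difference between KA and KS, given below as the log2 response of KA minus that of KS. Results are listed for the members that were called. In each of the 6 pathway lists, at most 4 called genes with the largest differences were checked. Those whose call was kept with each array left out in turn are listed. Erythroid markers are added at the end. Groups of 3 arrays were too small to test single arrays. The members were ITGA2B (0.50), TUBB1 (-0.90), THBS1 (0.997) and CD226 (-1.51), described above with the arrays on which they rest.

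Among receptors, TBXA2R differed by 0.98, with a response of 0.20 in KA and -0.78 in KS (adjusted p = 0.001212). CD36 differed by -0.62, with -0.27 in KA and 0.35 in KS (adjusted p = 0.01264). Among signalling genes, FERMT3, the kindlin that activates the platelet integrin, differed by 0.55, with 0.14 in KA and -0.42 in KS (adjusted p = 0.007284). Among granule contents, EGF differed by 1.58, with 1.58 in KA and a value near 0 in KS (adjusted p = 0.003943). Its KS means of 3.53 without and with decitabine lay close to the background bound. KS replicate 1 (3.30) and treated KS replicate 2 (3.24) were not above it, so the size of this difference is uncertain. PDGFA differed by 0.58, with 0.64 in KA and 0.06 in KS (adjusted p = 0.00699), and LTBP1 by -0.57, with 0.31 in KA and 0.88 in KS (adjusted p = 0.01417). UNC13D, a granule priming factor, differed by 0.61, with 0.26 in KA and -0.35 in KS (adjusted p = 0.007893). SRF, an actin-linked transcription factor, differed by 0.55, with -0.04 in KA and -0.59 in KS (adjusted p = 0.0173). Among 15 erythroid markers 0 were called higher and 2 lower (2 to 7 with an array left out), against 4.60% and 2.14% of all genes. HEMGN differed by -0.56, with -0.50 in KA and 0.06 in KS (adjusted p = 0.01631). The globin gene HBZ differed by -0.53, with -0.05 in KA and 0.47 in KS (adjusted p = 0.01391).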

How the results depend on the processing

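Of the 21 called member differences, none changed sign in 293 alternatives, 266 kept their call and 27 lost it; the lost ones were THBS1 with decitabine in KA, GP1BA between treated lines, and ITGA2B and THBS1 in the difference of responses. No pairing of the arrays by replicate number was seen, which 3 arrays per group cannot exclude. The correlations of same-numbered arrays ran from -0.26 to 0.19. Of 6 arrays, 0 were nearest their own number between untreated lines and 2 between treated lines. With decitabine it was 1 of 6 in KA and 1 of 6 in KS. With the replicate number as a block, the difference of responses was called for 778 genes against 1241, and for 2 members against 4; ITGA2B and THBS1 each had an adjusted p of 0.06418, and THBS1 in KA of 0.06073. With an intensity trend and a robust prior it was called for 1918 genes. With 1 of the 6 KA arrays left out, decitabine in KA was called for 1653 (without treated replicate 3) to 2002 genes against 2694. Without KS replicate 3, which enters the shared estimate of the spread, it was called for 3020 genes. With any of the 12 arrays left out, the difference of responses was called for 564 genes (without KS replicate 1) to 2049 genes (without KS replicate 3). It was then called for 2 to 5 members. The cause was not tested. Under median centring the genes called in KA were 1325 higher and 1409 lower against 1780 and 914, and in KS 1840 higher and 4397 lower against 2685 and 2900; between untreated lines they were 1705 higher and 3094 lower against 2133 and 2602. Quantile normalization gave 1647 higher and 1356 lower in KA and, for the difference of responses, 574 and 540 against 847 and 394. Some uncalled differences near 0 changed sign. Between untreated lines GP9 was -0.063 and THBS1 -0.031 after quantile normalization, and GP9 was -0.038, VWF -0.0005 and THBS1 -0.0038 after centring. With arrays left out between untreated lines, GP9 ran from -0.071 to 0.10, PF4 from -0.12 to 0.0495, VWF from -0.033 to 0.11 and THBS1 from -0.062 to 0.25. With decitabine in KA, PF4 ran from -0.16 to 0.0080 and PPBP from -0.16 to 0.0655, and in KS GP9 ran from -0.18 to 0.0067. Between treated lines GP9 ran from -0.046 to 0.11 and PF4 from -0.043 to 0.019. In the difference of responses GP9 ran from -0.087 to 0.10, PF4 from -0.0706 to 0.0965 and VWF from -0.046 to 0.11. Signals near background limit what can be seen of PF4, PPBP and VWF, and of THBS1 in treated KS.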

Other observations

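GP5, the remaining subunit of the GPIb-IX-V complex with a row of its own here, had group means of 5.103 in untreated KS, 5.18 in treated KS, 5.25 in untreated KA and 5.32 in treated KA, and was not called in any comparison between groups. NFE2, a transcription factor of late megakaryocytes, had group means of 8.82, 8.72, 8.76 and 8.80 in the same order and was not called in any comparison between groups. RUNX1 had group means of 8.04, 8.37, 8.07 and 8.18. It was called higher with decitabine in KS by 0.33 ± 0.10 (adjusted p = 0.02378), a call lost without KS replicate 1 or 2 or treated KS replicate 2 or 3. In KA it differed by 0.10, not called. These genes were picked after their values were seen.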
